A study of Mus musculus with 6 samples.

Results

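The genes for the proteins of the cytosolic ribosome were compared between pancreatic islets from Wt mice and from Pax8 +/- mice. Members were the genes whose platform symbol is Rpl or Rps followed by a number, with at most 1 letter or 1 further letter and an l or x, together with Rpsa and the Rplp genes. Genes for S6 kinases and symbols with -ps were left out. The rule found 61 genes of 19505 gene symbols on the array, 38 with a large-subunit symbol (Rpl) and 23 with a small-subunit symbol (Rps), and each had 1 of the 22206 gene probe sets. RefSeq lists 60 of them as protein-coding and Rps4l as a pseudogene. Rplp2 and Rps27a, which the rule also covers, were not analysed here.

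Each ribosome joins a small subunit, which reads the codons, to a large subunit, which forms the peptide bonds and holds the exit tunnel, and its proteins are made in near equal amounts. Their mRNAs begin with a C and a run of pyrimidines, the terminal oligopyrimidine (TOP) motif, through which the mTOR kinase and the RNA-binding protein Larp1 set how much of them is translated. In islets, where beta cells devote a large share of protein synthesis to proinsulin, ribosome supply is tied to hormone output. Pax8 is a transcription factor of the thyroid that its hormone-making cells require, and mice with 1 disrupted copy serve as a model of mild hypothyroidism.

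The 6 Clariom S arrays, which report 1 value per probe set, held islets of 9-month-old male C57BL/6 mice on standard chow, fasted for 16 h. The groups were 3 Wt arrays, labelled Control, and 3 Pax8 +/- arrays, and no hormone treatment is given for either. The disrupted allele is carried in every cell and not only in islets. After digestion with collagenase the islets were handpicked, and 50 ng of RNA was labelled. Whether an array holds islets of 1 mouse or several is not stated, so p-values measure only the spread between these samples, which may be technical. An exact permutation test of 3 against 3 arrays cannot give a p below 0.1, and the unadjusted p-values below come from limma, which shares the spread over all gene probe sets.

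Array medians over all gene probe sets lay between 5.25 and 5.33 on the log2 scale, and 25.3 to 29.5% of gene probe sets were above background, the 95th percentile of the negative controls of that array (7.60 to 7.97). Ins2 (insulin) and Gcg (glucagon) read within 0.1 of the highest value of every array (19.88 to 19.93), where differences cannot be measured. The acinar enzyme genes Amy2a5, Cpa1, Prss2 and Ctrb1 had the same values, so these hormone genes could not tell islet from exocrine RNA, and acinar RNA was present on all 6 arrays. Beta-cell genes below that ceiling, such as Slc2a2, Slc30a8, G6pc2 and Ucn3, were above background on all 6 arrays. Pax8 itself was below background on all 6 arrays (4.82 ± 0.21 in Wt and 4.73 ± 0.25 in Pax8 +/-, SD, n = 3 each), so it gave no check of the labels.

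Promoter letters are shown first because the start of these genes sets the TOP motif. RefSeq windows of 250 bases before and 50 after the annotated start (GRCm38.p6) were matched to 48 of the 61 members, and 13 had none. The lines below give the last 40 bases before the start and the first 20 after it, 5′ to 3′ on the gene's strand, for members the results turn on and for contrasting starts. Capitals mark a C followed by at least 4 C or T that begins within 10 bases of the annotated start. Where several positions met this rule, only the one nearest the start is marked. C or T directly before it stays in lower case.
Rpl28, chr7:4792925-4792984, plus strand: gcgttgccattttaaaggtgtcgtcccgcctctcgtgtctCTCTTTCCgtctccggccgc
Rps6, chr4:86857348-86857407, minus strand: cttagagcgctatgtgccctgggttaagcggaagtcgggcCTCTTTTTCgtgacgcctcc
Rpl35, chr2:39005112-39005171, minus strand: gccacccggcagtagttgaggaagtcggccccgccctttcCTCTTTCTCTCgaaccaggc
Rpl15, chr14:18270967-18271026, minus strand: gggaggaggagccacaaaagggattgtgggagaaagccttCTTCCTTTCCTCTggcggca
Rps27l, chr9:66946046-66946105, plus strand: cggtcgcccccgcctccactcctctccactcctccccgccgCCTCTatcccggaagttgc
Rpl5, chr5:107900488-107900547, plus strand: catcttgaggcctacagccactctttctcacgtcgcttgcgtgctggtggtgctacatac
Rps25, chr9:44407674-44407733, plus strand: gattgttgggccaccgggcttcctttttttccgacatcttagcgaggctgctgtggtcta
Rpsa, chr9:120127726-120127785, plus strand: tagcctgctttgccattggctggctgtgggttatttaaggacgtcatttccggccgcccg

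In Rpl28, Rps6, Rpl35 and Rpl15 the marked stretch begins at the annotated start. In each of them the run of C or T also extends upstream of it. Rps27l, of which RefSeq gives a second start, is shown at the first. Rpl5 and Rps25 carry a pyrimidine run farther upstream in the line and none within 10 bases, and an annotated start need not be the one used in islets.

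Of the 48 members with a window, 12 (25%) had a C followed by at least 4 C or T from the annotated start on. The share was 2.61% of 17444 other protein-coding genes. Within 10 bases either side of the start the count was 30 (62.5%), against 34.9%. The core bound by ETS-family factors such as Gabpa (CCGGAA, or TTCCGG on the other strand) was present in 24 windows (50%), against 20.8%. A core known for Yy1 (AAGATGG or CCATCTT) was present in 7 (14.6%), against 7.16%. The GC box (GGGCGG or CCGCCC) differed less between the gene sets, at 27 (56.2%) against 49.2%. The letters TATAAA upstream of the start were found in 2 members (4.17%), against 9.12% of the other genes. These matches describe the letters and say nothing of binding. Members with and without a run near the start had much the same median difference between genotypes: -0.19 (log2) over 30 members, of which 19 had the lower mean in Pax8 +/- islets, and -0.16 over 18 members, of which 11 did.

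**Figure D1:**
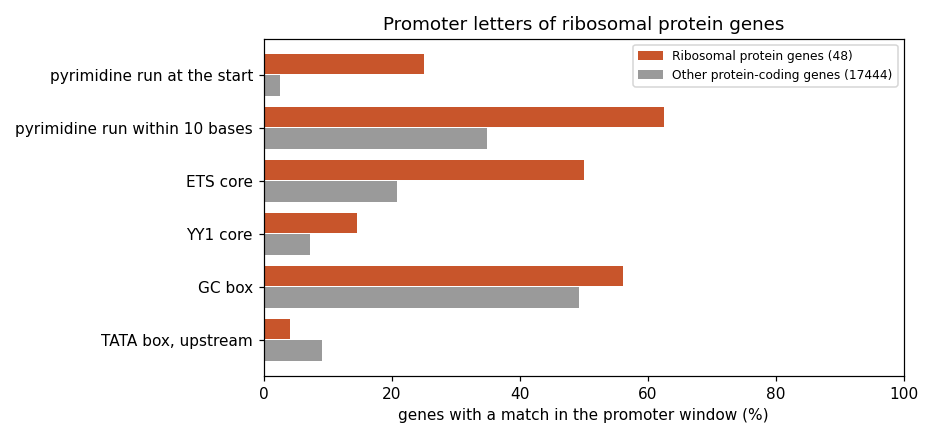
Share of RefSeq promoter windows (%) that hold each set of letters, for 48 ribosomal protein genes (orange) and 17444 other protein-coding genes (grey). A pyrimidine run at the annotated start was found in 25% of the former and 2.61% of the latter.

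Ribosomal protein mRNAs were abundant in the islets of both genotypes. Of the 61 members, 57 were above background on all 6 arrays, 2 on some arrays and 2 on none. No member lay at the upper end of the scale, and 6 were above a log2 value of 16 on every array.

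The comparison asked whether islets of Pax8 +/- mice held other levels of these mRNAs than Wt islets. No member passed an adjusted p of 0.05 in limma (smallest 0.745), none of the 22206 gene probe sets did (0%), and 3 members had an unadjusted p of at most 0.05: Rps27l, Rpl5 and Rps25, all with the lower mean in Pax8 +/- islets. These 3 are 4.92% of the members, beside 2.77% of all gene probe sets in that direction. In the other direction the count was 0 of 61, beside 3.14%. An ordinary linear model without shared variance called 0 members in either direction at the same p.

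At the thresholds of the study, a 2.5-fold difference with an unadjusted p of at most 0.05, 0 members were higher and 0 lower, beside 0.648% and 0.351% of all gene probe sets. Folds here are of group means, and the paper does not state which average its own folds rest on. Group means gave 144 higher and 78 lower gene probe sets. With Tukey biweight averages and the same p, 232 gene probe sets were higher and 119 lower. These equal the numbers of genes that the paper reports up and down at these thresholds. Under that measure too, 0 members were higher and 0 lower. Rpl28 (2.38), Rpl29 (1.41) and Rpl3 (-1.56) differed by more than 2.5-fold (1.32 in log2) there. Their limma unadjusted p, taken from the main fit, was above 0.05. The groups did not overlap in 1 member that was higher in Pax8 +/- islets, Rpl10a (1.64%, beside 4.52% of all gene probe sets), and in 2 that were lower, Rps25 and Rps27l (3.28%, beside 5.14%). The count at an unadjusted p was above the background share on the lower side, and the counts without overlap were below it.

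By group means, 39 of 61 members (63.9%) were lower in Pax8 +/- islets, beside 50.8% of all gene probe sets and 48% of the 4812 that were above background on all arrays. The median difference was -0.23 (log2, Pax8 +/- minus Wt), beside -0.01 over all gene probe sets and 0.02 over those above background. It rested on Pax8 +/- replicate 3: without that array the median was 0.01 and 30 of 61 members had the lower mean. Differences ran from -1.03 to 1.53, and 31 of 61 members differed by less than 0.3.

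Both subunits held members on either side. The median was -0.14 over the 38 large-subunit genes, of which 25 had the lower mean, and -0.28 over the 23 small-subunit genes, of which 14 did. At an unadjusted p of at most 0.05, 1 large-subunit gene (2.63%) and 2 small-subunit genes (8.7%) were lower, beside 2.77% of all gene probe sets. With so few calls the subunits cannot be ranked.

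The precision of 3 arrays a group was limited. The standard error of a difference had a median of 0.33 over the members and ran from 0.23 to 0.67. The 95% interval of the difference lay inside a 2.5-fold change either way for 41 of 61 members (67.2%), beside 76.8% of all gene probe sets. For the other 20 a 2.5-fold difference in at least 1 direction lay within the interval. Spread between arrays was larger in the Pax8 +/- group, with a median SD of 0.44, than in the Wt group, with 0.32.

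**Figure D2:**
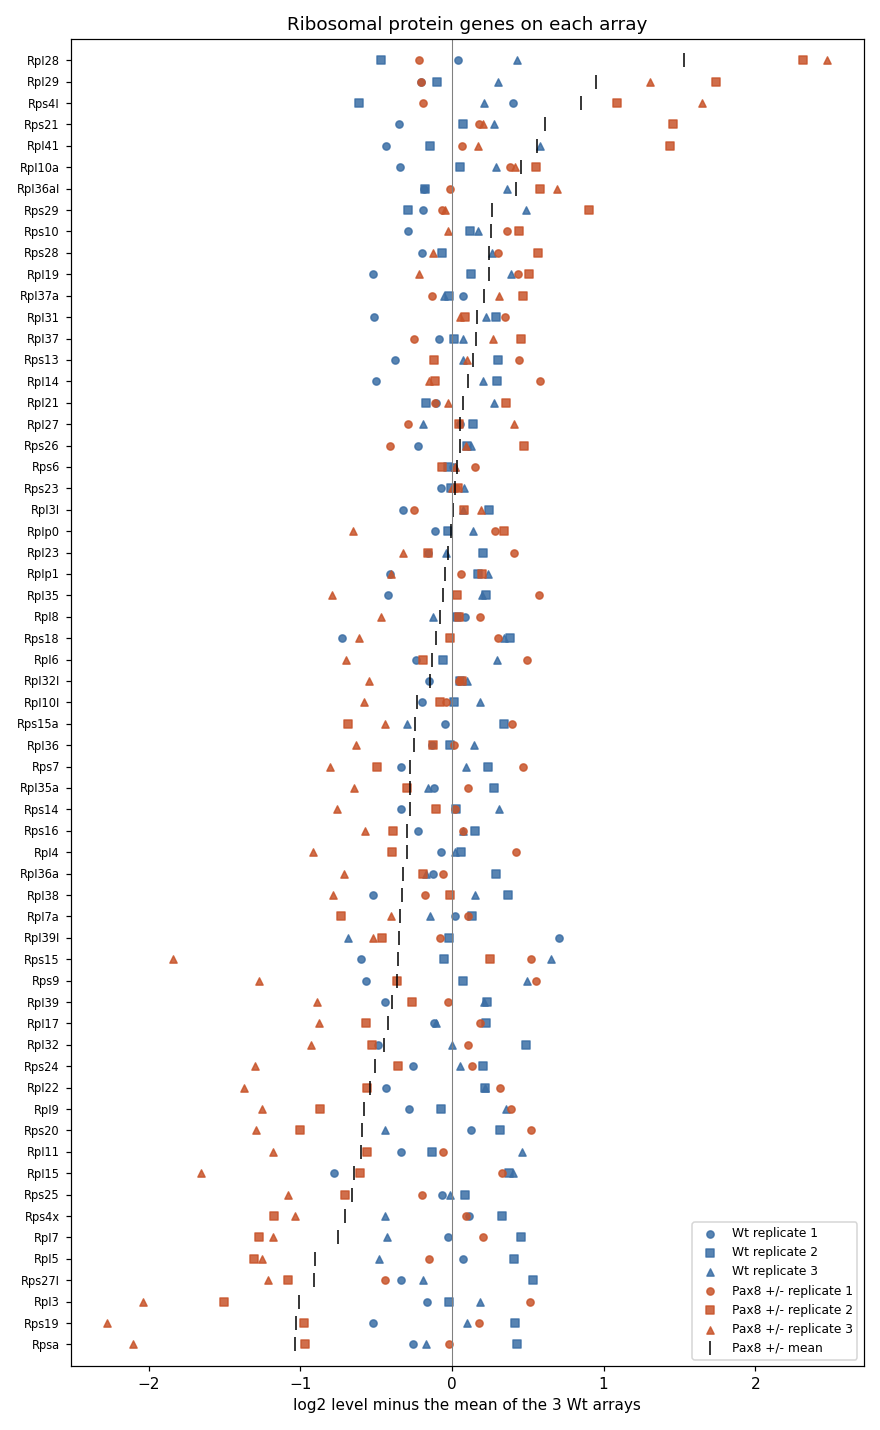
Level of each of the 61 ribosomal protein genes on each array, as log2 minus the mean of the 3 Wt arrays, with Wt arrays in blue, Pax8 +/- arrays in orange and the Pax8 +/- mean as a bar. Genes are ordered by that mean, from 1.53 for Rpl28 to -1.03 for Rpsa, and many orange triangles (Pax8 +/- replicate 3) lie to the left.

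Rps27l, a paralogue of Rps27 that p53 induces in human cells, had the smallest p of the members. It read 11.42, 12.28 and 11.56 on the Wt arrays and 11.31, 10.67 and 10.54 on the Pax8 +/- arrays. The lowest Wt array and the highest Pax8 +/- array were 0.10 apart, so the groups did not overlap, although Wt replicate 2 was well above the other Wt arrays. The mean was 11.75 ± 0.46 in Wt and 10.84 ± 0.41 in Pax8 +/- islets (SD, n = 3 each). The difference was -0.91 (SE 0.34, 95% interval -1.68 to -0.14, limma unadjusted p = 0.0253, adjusted p = 0.745).

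Rpl5 carries the 5S ribosomal RNA into the large subunit together with Rpl11, and both bind the p53 regulator Mdm2 when ribosome assembly is disturbed. It read 17.36, 17.69 and 16.80 in Wt and 17.14, 15.98 and 16.03 in Pax8 +/- islets. Pax8 +/- replicate 1 lay among the Wt arrays and the other 2 Pax8 +/- arrays below all of them. The difference was -0.90 (SE 0.39, 95% interval -1.79 to -0.01, limma unadjusted p = 0.0474). Rpl11 read 14.07, 14.28 and 14.87 in Wt and 14.35, 13.85 and 13.23 in Pax8 +/- islets, a difference of -0.60 (SE 0.36, limma adjusted p = 0.749). Its arrays had the same arrangement as those of Rpl5, with replicate 1 inside the Wt range and the other 2 below it.

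Rps25, a protein of the head of the small subunit on which several viral internal ribosome entry sites depend, read 12.46, 12.61 and 12.52 in Wt and 12.33, 11.82 and 11.45 in Pax8 +/- islets. The Wt arrays were close together (12.53 ± 0.08, SD, n = 3), the Pax8 +/- arrays were spread (11.87 ± 0.44), and a gap of 0.13 separated the groups. The difference was -0.66 (SE 0.29, limma unadjusted p = 0.0495).

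The largest mean differences on the lower side belonged to Rpsa, Rps19 and Rpl3, none of which reached an unadjusted p of 0.05. Rpsa, a small-subunit protein also known as the laminin receptor precursor, read 11.80, 12.49 and 11.88 in Wt and 12.03, 11.09 and 9.95 in Pax8 +/- islets (difference -1.03, SE 0.50, limma adjusted p = 0.745). Rps19, the gene most often mutated in human Diamond-Blackfan anaemia, read 9.98, 10.91 and 10.60 against 10.67, 9.52 and 8.22 (-1.03, SE 0.57, limma adjusted p = 0.745). Rpl3, which lies near the peptidyl transferase centre, read 13.65, 13.80 and 14.00 against 14.33, 12.31 and 11.78 (-1.01, SE 0.59, limma adjusted p = 0.746). In all 3 genes Pax8 +/- replicate 1 lay inside or above the Wt range, replicate 2 lay below it and replicate 3 was the lowest array.

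On the higher side Rpl28, a large-subunit protein that budding yeast lacks, stood farthest out. It read 13.94, 13.44 and 14.33 in Wt and 13.69, 16.22 and 16.38 in Pax8 +/- islets. Again replicate 1 lay among the Wt arrays, while replicates 2 and 3 were far above all of them. The means were 13.91 ± 0.45 and 15.43 ± 1.51 (SD, n = 3 each), a difference of 1.53 or 2.88-fold (SE 0.67, 95% interval -0.01 to 3.06, limma unadjusted p = 0.0507, adjusted p = 0.745).

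Rpl29, another large-subunit protein, without which mice stay small, was arranged like Rpl28. It read 11.36, 11.47 and 11.87 in Wt and 11.37, 13.31 and 12.88 in Pax8 +/- islets (difference 0.95, SE 0.48, limma adjusted p = 0.745). Rps21, a small-subunit protein, read 11.67, 12.09 and 12.30 against 12.20, 13.48 and 12.22 (0.61, SE 0.39, limma adjusted p = 0.755). Rpl41, the shortest ribosomal protein, read 16.98, 17.27 and 17.99 against 17.48, 18.85 and 17.59 (0.56, SE 0.43, limma adjusted p = 0.792). For Rps21 and Rpl41 only Pax8 +/- replicate 2 was above the Wt range, and the other 2 arrays lay within it.

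Rpl10a, a large-subunit protein of the L1 stalk, read 14.32, 14.72 and 14.96 in Wt and 15.05, 15.22 and 15.09 in Pax8 +/- islets. It was the member in which all 3 Pax8 +/- arrays were above all Wt arrays, by 0.09 at the nearest. The difference was 0.45 (SE 0.26, limma adjusted p = 0.745).

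**Figure D3:**
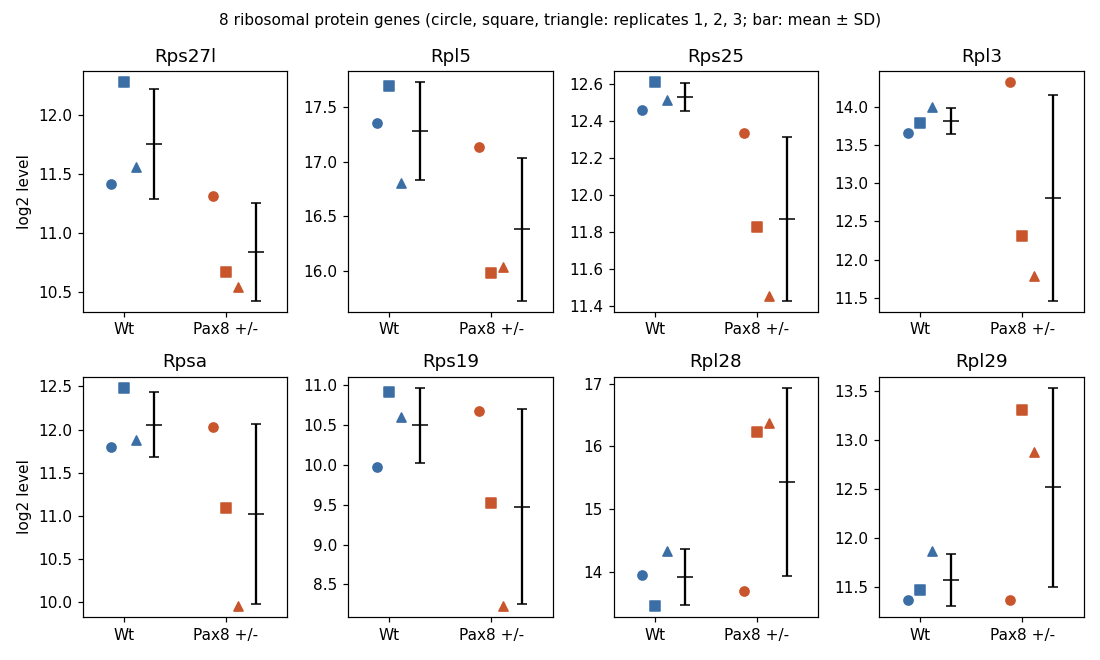
Log2 level of 8 ribosomal protein genes on each array, with circles, squares and triangles for replicates 1, 2 and 3, Wt in blue and Pax8 +/- in orange, and the mean ± SD (n = 3 arrays) beside the points. The vertical axes do not start at 0, and in all 8 genes the circle of Pax8 +/- replicate 1 lies closer to the Wt mean than the square and the triangle do.

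Pax8 +/- replicate 1 thus differed from the other 2 arrays of its group. Against the range of the 3 Wt arrays it had 6 members below (9.84%, beside 22.7% of all gene probe sets). It had 21 above (34.4%, beside 21.5%) and 34 within, and its median difference from the Wt mean was 0.10. Pax8 +/- replicate 2 had 23 below (37.7%, beside 30.5%), 16 above (26.2%, beside 28.6%) and 22 within, with a median of -0.11. Pax8 +/- replicate 3 had 36 below (59%, beside 28.3% of all gene probe sets), 9 above (14.8%, beside 28.6%) and 16 within, with a median of -0.58. Replicate 3 was the lowest of the 6 arrays for 31 members (50.8%, beside 19.3% of all gene probe sets), and Wt replicate 1 was the lowest for a further 15 (24.6%, beside 13.6%).

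Without Pax8 +/- replicate 1 the counts changed, in a fit of 3 arrays against 2. At the thresholds of the study, 3 members were then higher, Rpl28, Rpl29 and Rps4l (4.92%, beside 3.33% of all gene probe sets), and 3 lower, Rpl3, Rps19 and Rpsa (4.92%, beside 2.69%). At an unadjusted p of at most 0.05 the same 3 were higher (4.92%, beside 7.99%) and 15 were lower (24.6%, beside 7.35%). The 15 were Rpl3, Rpl5, Rpl7, Rpl9, Rpl11, Rpl15, Rpl17, Rpl22, Rps4x, Rps19, Rps20, Rps24, Rps25, Rps27l and Rpsa. No member passed an adjusted p of 0.05 there, while 29 of all gene probe sets did. Without Wt replicate 2, Pax8 +/- replicate 2 or Pax8 +/- replicate 3, 0 members had an unadjusted p of at most 0.05, and without Wt replicate 1 only Rps27l did.

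Members varied together across the arrays, with a smaller set varying the opposite way. Over the 1830 pairs of members, the median Pearson r across the 6 arrays was 0.42, and 68.1% of pairs were above 0. The first principal component of the members held 72.4% of their variance. Wt replicates 1 to 3 scored -0.55, -3.28 and -1.72 along it and Pax8 +/- replicates 1 to 3 scored -3.10, 2.96 and 5.68, so that Pax8 +/- replicate 1 stood with Wt replicate 2. These correlations describe 6 arrays that share their normalization and have no test.

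Of the members, 41 had an r above 0.5 with the mean of all members and 6 had an r below -0.5. The 6 were Rpl27, Rpl28, Rpl29, Rpl36al, Rpl37a and Rps4l. Rpl28 was most like Rpl29 (r = 0.97), Rps4l (0.94), Rpl36al (0.93), Rpl37a (0.91) and Rpl37 (0.88). It was most unlike Rpl7 (-0.98), Rps4x (-0.97) and Rpl5 (-0.97). Each of these values is over 6 arrays, of which Pax8 +/- replicates 2 and 3 lay far from the rest for most of these genes.

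Paralogues did not follow their parent genes in every case. Rps4l, a transcribed pseudogene by RefSeq, read 8.47, 7.46 and 8.28 in Wt and 7.88, 9.16 and 9.72 in Pax8 +/- islets, above background on 5 arrays (difference 0.85, SE 0.49). Its parent Rps4x, an X-linked small-subunit gene, read 14.31, 14.53 and 13.76 against 14.29, 13.02 and 13.17 (-0.71, SE 0.39), and the r between them was -0.89. Replicates 2 and 3 of the Pax8 +/- group were thus above the Wt arrays in Rps4l and below them in Rps4x.

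Rpl36al, an intronless copy of Rpl36a, read 10.12, 10.12 and 10.66 in Wt and 10.29, 10.88 and 10.99 in Pax8 +/- islets (0.42, SE 0.30), and the difference of Rpl36a was -0.32 (SE 0.28, r = -0.79). Rpl32l (-0.14) and Rpl32 (-0.45) varied together (r = 0.75). Rpl10l, which stands in for the X-linked Rpl10 in male germ cells, was above background on 1 array (7.01 to 7.77). Rpl3l, known from muscle (2.52 to 3.09), and Rpl39l, known from testis (4.13 to 5.52), were below background on all 6 arrays, so their differences of 0.01 and -0.35 carry no measure of expression.

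Many of these genes have near-identical copies elsewhere. RefSeq lists 211 genes with a -ps symbol named after 44 of the 61 members, and a probe set that also binds such a copy would mix both, so the value of a single member is uncertain in that respect. Members lie on 17 chromosomes, with at most 7 on 1 chromosome.

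By role, the stalk proteins, which recruit translation factors, differed least. Rplp0 read 11.83, 11.91 and 12.08 in Wt and 12.22, 12.29 and 11.28 in Pax8 +/- islets (difference -0.01, SE 0.32), and Rplp1 read 16.54, 17.11 and 17.18 against 17.00, 17.14 and 16.54 (-0.05, SE 0.29). Neither sign was stable when 1 array was left out, with ranges of -0.19 to 0.31 for Rplp0 and -0.25 to 0.13 for Rplp1. The genes around the exit tunnel, Rpl4 (-0.30), Rpl17 (-0.42) and Rpl39 (-0.39), all had the lower mean in Pax8 +/- islets. Of 10 genes known from human Diamond-Blackfan anaemia, 8 were measured, 6 with a lower and 2 with a higher mean, and their median was -0.39. These role groups were chosen after the values were seen.

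Rps6, the small-subunit protein that S6 kinase phosphorylates, read 19.41, 19.38 and 19.43 in Wt and 19.56, 19.34 and 19.43 in Pax8 +/- islets. Rps23, a protein of the decoding centre, lay between 18.90 and 19.05. Their differences were 0.04 and 0.02, with the smallest SEs of the list (both 0.23), but both genes stood near the top of the scale, where a difference may be compressed.

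Rps29, the small-subunit gene that served the study as reference in quantitative PCR, read 13.83, 13.73 and 14.51 in Wt and 13.95, 14.92 and 13.98 in Pax8 +/- islets. The groups overlapped and the difference was 0.26 (SE 0.36, 95% interval -0.56 to 1.08). Without Pax8 +/- replicate 2, the highest array, it was -0.06.

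Other parts of the translation machinery were set beside the members. A list of 7 ribosomal proteins and paralogues whose names fall outside the rule had 5 measured genes, 3 with the lower mean, and 1 of the 5, Rsl24d1, was below background on every array. Rps3a1 (-0.05) and Rpl37rt (0.33), which also fall outside the rule, were added after the values were seen. Rpl7l1, a paralogue of Rpl7, read 11.39, 11.16 and 11.27 in Wt and 10.92, 10.45 and 10.57 in Pax8 +/- islets, with no overlap (-0.63, SE 0.25, limma unadjusted p = 0.0349). Rpl22l1, a paralogue of Rpl22, differed by -0.55 and Fau, whose product holds the small-subunit protein eS30, by -0.25. Rpl7l1 was the 1 gene of the 5 at an unadjusted p of at most 0.05 (20%, beside 2.77%).

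Other mRNAs with a TOP motif had the lower mean in 10 of 15 genes, with a median of -0.30. Pabpc1, the cytoplasmic poly(A)-binding protein, read 18.51, 18.05 and 17.90 in Wt and 17.81, 17.15 and 16.79 in Pax8 +/- islets (-0.90, limma unadjusted p = 0.0249), and Naca, a chaperone subunit at the exit tunnel, differed by -0.73 (limma unadjusted p = 0.0397). Neither gene overlapped between the groups, beside 5.14% of all gene probe sets without overlap on the lower side. They were the 2 lower genes of this list that reached an unadjusted p of 0.05 (13.3%, beside 2.77%), and 0 genes did so in the other direction (beside 3.14%). Eef1a1 could not be compared, since it read within 0.1 of the highest value of each array.

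Genes of ribosome assembly had the lower mean in 30 of 42, with a median of -0.13, but 13 of the 42 were below background on every array. Over the 25 whose mean over all arrays was above background, 19 had the lower mean and the median was -0.11. Nop58, a core protein of the particles that methylate ribosomal RNA, read 11.48, 10.87 and 10.80 in Wt and 10.76, 9.63 and 9.08 in Pax8 +/- islets (-1.23, limma unadjusted p = 0.0216). Ncl (nucleolin) differed by -0.69 (limma unadjusted p = 0.0308), and Nob1, the nuclease that trims the small-subunit RNA, by 0.72 (limma unadjusted p = 0.0456). Those were the 2 lower (4.76%) and the 1 higher gene (2.38%) of the list at an unadjusted p of at most 0.05, shares near those of all gene probe sets (2.77% and 3.14%).

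Among 17 genes that control ribosomal protein synthesis the median was -0.10. Rheb, the GTPase that switches on mTOR complex 1, read 14.51, 14.58 and 13.98 in Wt and 13.78, 12.98 and 12.48 in Pax8 +/- islets (-1.28, SE 0.37, limma unadjusted p = 0.00797). Mtor itself, above background on 4 arrays, differed by 1.02 (limma unadjusted p = 0.0367), Yy1 by -0.75 (limma unadjusted p = 0.0352) and Max, the partner of Myc, by 0.81 (limma unadjusted p = 0.0237). The 2 lower and 2 higher genes were 11.8% of the list each way, beside 2.77% and 3.14%. Larp1 and Myc differed by -0.04 and 0.23, neither at an unadjusted p of at most 0.05. The adjusted p was 0.745 for every gene of these lists named with an unadjusted p.

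Of 76 mitochondrial ribosomal protein genes, 36 had the lower and 40 the higher mean, with a median of 0.03, but 27 of them were below background on every array. Over the 35 whose mean over all arrays was above background, 18 were lower, 17 higher and the median was -0.01. At an unadjusted p of at most 0.05, 1 of the 76 was lower (1.32%, beside 2.77%) and 0 were higher. All these lists were fitted in the same model as the members, and no difference between lists was tested.

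**Figure D4:**
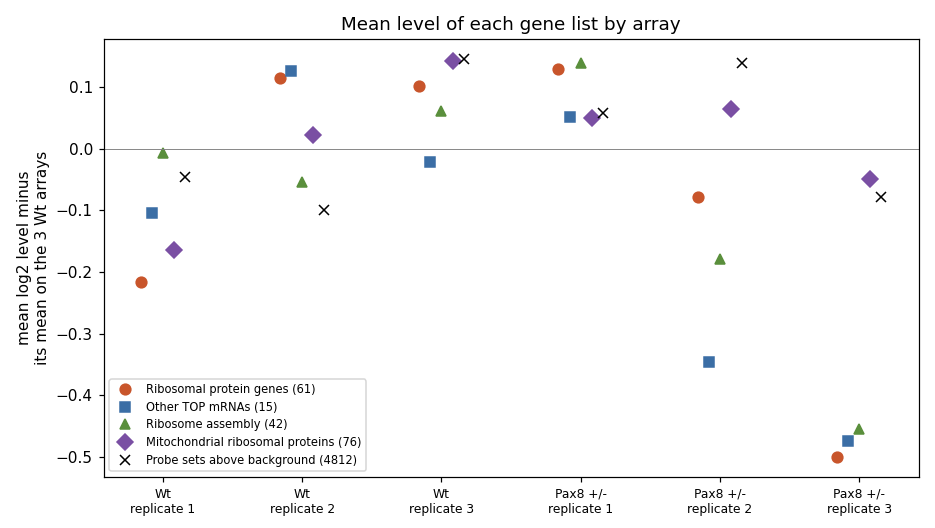
Mean log2 level of each gene list on each array, minus its mean on the 3 Wt arrays, for ribosomal protein genes (61), other TOP mRNAs (15), ribosome assembly (42), mitochondrial ribosomal proteins (76) and all gene probe sets above background (4812). The first 3 lists have their lowest point on Pax8 +/- replicate 3, where the members' mean level was 12.77, beside 13.05 to 13.39 on the Wt arrays.

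Levels of cell-type markers and of stress-response genes differed between the arrays as well. In bulk islets fewer cells of a type and less RNA per cell cannot be told apart. Of the beta-cell markers (9 of 10 measured), Ins2 and Iapp stood at the ceiling and Mafa was below background on every array. The other 6 all had the higher mean in Pax8 +/- islets, with 0 at an unadjusted p of at most 0.05. Their mean log2 level was 11.81, 10.35 and 13.48 on the Wt arrays and 11.64, 14.90 and 14.98 on the Pax8 +/- arrays. Replicates 2 and 3 of the Pax8 +/- group, on which Rpl28 was high and Rpl5 and Rpl3 were low, were thus also the arrays with the highest beta-cell markers. Genes of the dissociation stress response (9 of 9 measured, 7 lower, 2 below background on every array) had a mean level of 9.16, 9.85 and 8.35 in Wt and 9.30, 7.20 and 7.59 in Pax8 +/- islets, lowest on the same 2 arrays. Fosb (-1.87, limma unadjusted p = 0.00531), Jun and Hspa1b were lower at an unadjusted p of at most 0.05 (33.3% of the list, beside 2.77%).

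Duct markers (6 of 7 measured, 5 lower) had mean levels of 12.05 to 12.85 in Wt and 11.00 to 12.84 in Pax8 +/- islets. Endothelial markers (5 of 5 measured, 4 lower) lay between 8.96 and 10.01 and between 8.41 and 9.79. Both lists were lowest on Pax8 +/- replicates 2 and 3. Acinar markers (9 of 10 measured, 5 lower) stayed between 16.16 and 16.46 and between 15.99 and 16.20, with 4 of them at that ceiling of the scale on every array and 2, Ptf1a and Rbpjl, below background. All 4 measured macrophage markers, all 4 lymphocyte markers and 4 of 5 mesenchymal markers were below background on every array. The part of these markers in the differences between arrays was not tested.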

How the data were processed

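Islet RNA from 6 Clariom S arrays was analysed. The deposited values were log2, with 1 for each probe set on an array, and RMA and Transcriptome Analysis Console are the tools that the submitters' processing notes list. The sources used here do not give their versions, the annotation release or the origin of values above 16. RMA brings arrays to a common distribution of probe values, so a shift shared by all genes would not be seen. Depth does not apply to arrays, and precision is limited by 3 arrays a group.

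Control probe sets (5222 negative, 1418 other) were left out and 22206 gene probe sets kept without a filter. Symbols came from the platform annotation, and all 61 members matched RefSeq by gene ID. Groups were compared with limma 3.58.1 in R 4.3.3 (lmFit, eBayes, 2-sided, Benjamini-Hochberg over all gene probe sets). The fit was tested on simulated data. Differences are Pax8 +/- minus Wt of group means.

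Members and lists were chosen with earlier results of these data known. Named were members at an unadjusted p of at most 0.05, the 5 largest differences each way, those without overlap or not above background, members of known role, paralogues, and up to 4 genes per companion list with the smallest p up to 0.05. Alternatives were the normalization, moderation, array weights, dim probe sets, replicate block and leaving out each array. A further alternative took differences from Tukey biweight averages instead of group means and kept the p of the main fit. Same-numbered arrays did not deviate together (r = 0.00, -0.42 and 0.14 for numbers 1, 2 and 3), and differently numbered arrays had r from -0.45 to 0.47. Such values cannot show whether same-numbered samples were processed together, and the main fit did not pair them.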

Additional observations from a re-analysis of the deposited data

How the results depend on the processing

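The members' count at an adjusted p under 0.05 was 0 under every alternative run. The count lower at an unadjusted p of at most 0.05 was 3 of 61 in the main fit (beside 2.77% of all gene probe sets). It was 0 without empirical Bayes moderation (beside 2.4%) and 1 with an intensity trend and robust settings (beside 2.67%). With array weights it was 7 (beside 6.27%), and with the dimmest probe sets left out 1 of 60 (beside 2.52%). Quantile normalization and scaling to 1 median each gave 2 (beside 2.87% and 2.47%). The count ran from 0 to 15 when 1 array was left out, and the share of all gene probe sets from 1.18% to 7.35%. The count higher at that p was 0 in the main fit (beside 3.14%). It was 1 with the trend (beside 3.16%) and 3 with array weights (beside 7.58%). Scaling to 1 median and the replicate block each gave 1 (beside 3.32% and 3.15%). Over the left-out arrays the higher count ran from 0 to 3, and the share of all gene probe sets from 1.13% to 7.99%. At the thresholds of the study, the higher count went from 0 to 1 under the trend, array weights, scaling and replicate block (Rpl28 each time). Of 22206 gene probe sets, 165, 494, 158 and 203 were higher there, beside 144 in the main fit. Over left-out arrays the higher and the lower count each ran from 0 to 3, beside 24 to 740 and 17 to 597 of all gene probe sets. The highest values all came without Pax8 +/- replicate 1. The cause was not tested. The replicate block left 2 members lower at an unadjusted p of at most 0.05 (Rpl5 and Rps27l, beside 2.45%) and the median at -0.23. The median difference lay between -0.38 and 0.01 over left-out arrays and between -0.27 and -0.14 under the other alternatives.

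Of the 3 members lower at an unadjusted p, Rps25 passed it no longer in 10 of 14 alternatives, Rpl5 in 8 and Rps27l in 4, with no change of direction. Among the 14, the Tukey biweight kept the p of the main fit, so no member could be lost under it. Rpl28 lay between 1.05 and 2.40 over left-out arrays.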
